A study of Mus musculus with 16 samples.

Results

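Complexes II to V of the mitochondrial inner membrane pass electrons from succinate and ubiquinol to oxygen and use the resulting proton gradient to make ATP. Their nuclear-encoded subunits were read in mouse hearts lacking carnitine palmitoyltransferase 2 (CPT2), the enzyme that frees long-chain acyl groups for beta-oxidation inside mitochondria, and in such hearts that also lacked USP30, an enzyme on the mitochondrial surface that strips ubiquitin from proteins and restrains mitophagy. The genes were chosen by symbol, with earlier results of these data known. The symbols were Sdha to Sdhd for complex II and Uqcr genes and Cyc1 for complex III. Those of complex IV were Cox4 to Cox8 genes and those of complex V Atp5 genes. Such a symbol was carried by 46 of 14138 genes in the first count table, of which 44 encode subunits, and by 47 of 17831 genes in the second, of which 46 encode subunits. The second table adds Atp5mpl and Cox7b2. Atp5s and Atp5sl carry the symbol but encode no subunit of the enzyme, and are given apart.

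The first table compares 5 CPT2H-KO hearts with 5 wild type hearts. The second compares 3 CPT2/USP30 double KO hearts with 3 CPT2 single KO hearts, whose genotype label is also CPT2H-KO, so that every heart of the second table lacks CPT2. CPT2 was removed from cardiomyocytes only; a Myh6-Cre driver, active in heart muscle cells, is named for the deletion of USP30, and no source used here names the driver for CPT2 or the age or sex of the animals. Each library is total RNA of a heart with ribosomal RNA removed, so RNA of other cardiac cells is included, and fewer heart muscle cells cannot be told apart from less RNA per heart muscle cell. Nothing in the labels ties hearts to litters, so a p-value here reflects the scatter of these libraries alone.

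Complex II, succinate dehydrogenase, is wholly encoded in the nucleus. Complex III, ubiquinol-cytochrome c reductase, and complex IV, cytochrome c oxidase, have catalytic cores that include mitochondrially encoded proteins, and complex V, ATP synthase, has mitochondrially encoded membrane subunits. Some small subunits of complex IV exist in a form found in heart and skeletal muscle and in a general form made in most tissues: COX6A (Cox6a2 and Cox6a1), COX7A (Cox7a1 and Cox7a2) and COX8 (Cox8b and Cox8a). In the rodent heart the muscle forms replace much of the general forms after birth. Many promoters of respiratory chain genes are bound by NRF1, by ETS family factors such as GABP, or by oestrogen-related receptors (ERR), while E boxes and MEF2 sites are typical of muscle genes.

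RefSeq promoter sequences on GRCm38.p6 were held for 35 of the 46 subunits and run from 250 bases before to 50 bases after the start site. The 4 shown are those of isoforms contrasted further on, and were picked with their values known. Cox8b and Cox7a1 are muscle forms that were lower in CPT2H-KO hearts, and Cox8a and Cox6a1 are general forms that were not. The window of Cox7a2, a general form that was lower, was held but is not shown. Capitals mark matches to the letters searched on both strands, CGCATGCG for NRF1 and CCGGAAG for ETS factors (reading CTTCCGG when the match is on the other strand) in the general forms, and CAGCTG for the E box in Cox8b.
Cox8b, chr7:140900397-140900696, minus strand: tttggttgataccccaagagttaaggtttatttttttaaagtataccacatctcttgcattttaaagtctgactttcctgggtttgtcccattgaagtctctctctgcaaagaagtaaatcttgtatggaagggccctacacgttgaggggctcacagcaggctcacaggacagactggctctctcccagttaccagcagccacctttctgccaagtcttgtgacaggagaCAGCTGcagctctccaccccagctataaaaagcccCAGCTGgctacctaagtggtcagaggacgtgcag
Cox8a, chr19:7217567-7217866, minus strand: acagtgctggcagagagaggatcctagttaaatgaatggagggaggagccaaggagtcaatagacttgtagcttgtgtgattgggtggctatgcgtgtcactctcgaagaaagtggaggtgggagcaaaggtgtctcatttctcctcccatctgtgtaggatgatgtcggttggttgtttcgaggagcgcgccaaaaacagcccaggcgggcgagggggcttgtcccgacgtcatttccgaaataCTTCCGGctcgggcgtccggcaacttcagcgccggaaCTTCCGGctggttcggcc
Cox7a1, chr7:30183921-30184220, plus strand: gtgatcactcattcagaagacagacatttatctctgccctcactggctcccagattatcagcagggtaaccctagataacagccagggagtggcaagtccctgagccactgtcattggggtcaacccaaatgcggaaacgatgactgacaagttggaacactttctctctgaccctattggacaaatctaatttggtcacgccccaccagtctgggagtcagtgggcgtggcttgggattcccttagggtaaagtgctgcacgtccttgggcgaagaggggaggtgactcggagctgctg
Cox6a1, chr5:115348909-115349208, minus strand: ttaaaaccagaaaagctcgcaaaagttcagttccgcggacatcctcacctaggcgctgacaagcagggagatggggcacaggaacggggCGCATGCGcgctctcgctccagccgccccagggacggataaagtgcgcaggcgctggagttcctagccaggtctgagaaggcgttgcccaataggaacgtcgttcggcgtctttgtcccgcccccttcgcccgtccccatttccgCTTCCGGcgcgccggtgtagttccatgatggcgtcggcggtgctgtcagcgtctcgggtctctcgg
The Cox8b window holds the E box letters at -19 and 16 from the start site and neither the NRF1 nor the ETS letters. The Cox8a window holds the ETS letters at -5 and 32, and that of Cox6a1 the NRF1 letters at -161 and the ETS letters at -16. Neither the Cox7a1 window nor that of Cox7a2, which is not shown, holds any of the letters searched. Over all subunits with a sequence, the ETS letters occur in 11 of 35 (31.4%, against 9.12% of 27025 promoters in the table) and the NRF1 letters in 6 (17.1%, against 1.91%). The ERR letters TCAAGGTCA occur in 2 (5.7%, against 0.41%), those of Atp5g3 and Sdhd, and the E box letters in 2 (5.7%, against 16.11%), those of Cox8b and Atp5b. The MEF2 letters CTATTTAT and CTAAAAATA occur in 0 of 35, against 1.59% of all promoters. In CPT2H-KO hearts, every subunit with the ETS letters other than Cox6a1 and Cox8a was called lower. So was every subunit with the NRF1 letters other than Cox6a1 and Uqcrc1. Beside these, 35 of all 44 subunits and 17% of all genes tested were called lower. No searched motif overlaps another in the windows shown. All are letter matches only, and neither their shares nor a link to the calls was tested.

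Library totals spanned 54674422 to 132762776 counts for CPT2H-KO and wild type hearts, and 11067969 to 13532716 counts for double and single KO hearts. Cpt2 was lower in CPT2H-KO hearts (40.4 ± 5.72 CPM, the count scaled to a TMM-adjusted library total) than in wild type hearts (77.9 ± 15.2 CPM; SD, n = 5 each; log2 fold change -0.95, edgeR adjusted p = 9.71e-04), and Usp30 was at 9.39 ± 1.68 CPM in double KO and 21.0 ± 2.23 CPM in single KO hearts (n = 3 each; log2 fold change -1.16, adjusted p = 0.147), without overlap in either case. Cardiomyocyte markers were abundant in every library. The atrial genes Myl7, Myl4 and Sln together stood at 45.5, 1.80, 1.16, 2.02 and 353 CPM in CPT2H-KO libraries and at 57.1 to 438 CPM in wild type libraries, and at 9.05, 383 and 1434 CPM in double KO libraries and 2.93 to 3.58 CPM in single KO libraries. A further atrial gene of the marker list, Nppa, which stressed ventricles also make, was left out of this sum and of the atrial covariate. Nppa went the other way, at a mean of 1067 CPM in CPT2H-KO and 246 CPM in wild type hearts (log2 fold change 2.12, edgeR adjusted p = 0.0229), while Myl7, Myl4 and Sln were not called. With Nppa the sums were 368 to 2667 CPM in CPT2H-KO and 226 to 1052 CPM in wild type libraries, and 7459, 1269 and 4217 CPM in double KO and 1189.6 to 2743 CPM in single KO libraries. Y-linked transcripts were at background in 2 of 5 CPT2H-KO and 1 of 5 wild type libraries, and in all 3 double KO and 1 of 3 single KO libraries. In the second table their absence thus goes largely with the double KO. A difference tied to sex cannot be told apart there from one tied to USP30 loss.

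The first comparison asks what loss of CPT2 in heart muscle does to these transcripts. Most nuclear subunits of complexes II to V were lower in CPT2H-KO hearts, in every complex. Of 44 subunits, all of which passed the filter on low counts, 35 were lower, 1, Cox6a1, was higher and 8 were not called at an edgeR adjusted p under 0.05. Over all 14123 genes tested, 33.7% were called, 17% lower and 16.7% higher. The median log2 fold change of the subunits was -0.37, against -0.01 for all genes tested. The groups did not overlap for 32 of the 44, all lower, against 24.7% of all genes without overlap and 13.2% that were lower without overlap. The summed level of the subunits was 9696, 9396, 10756, 10494 and 10920.5 CPM in CPT2H-KO hearts and 13543, 12826, 13588, 12697 and 11718 CPM in wild type hearts. Every CPT2H-KO library thus lay under every wild type library. As a share of the counts of genes not encoded in mitochondrial DNA, the subunits took 2.85 ± 0.236% in CPT2H-KO and 3.58 ± 0.197% in wild type hearts (SD, n = 5 each).

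**Figure D1:**
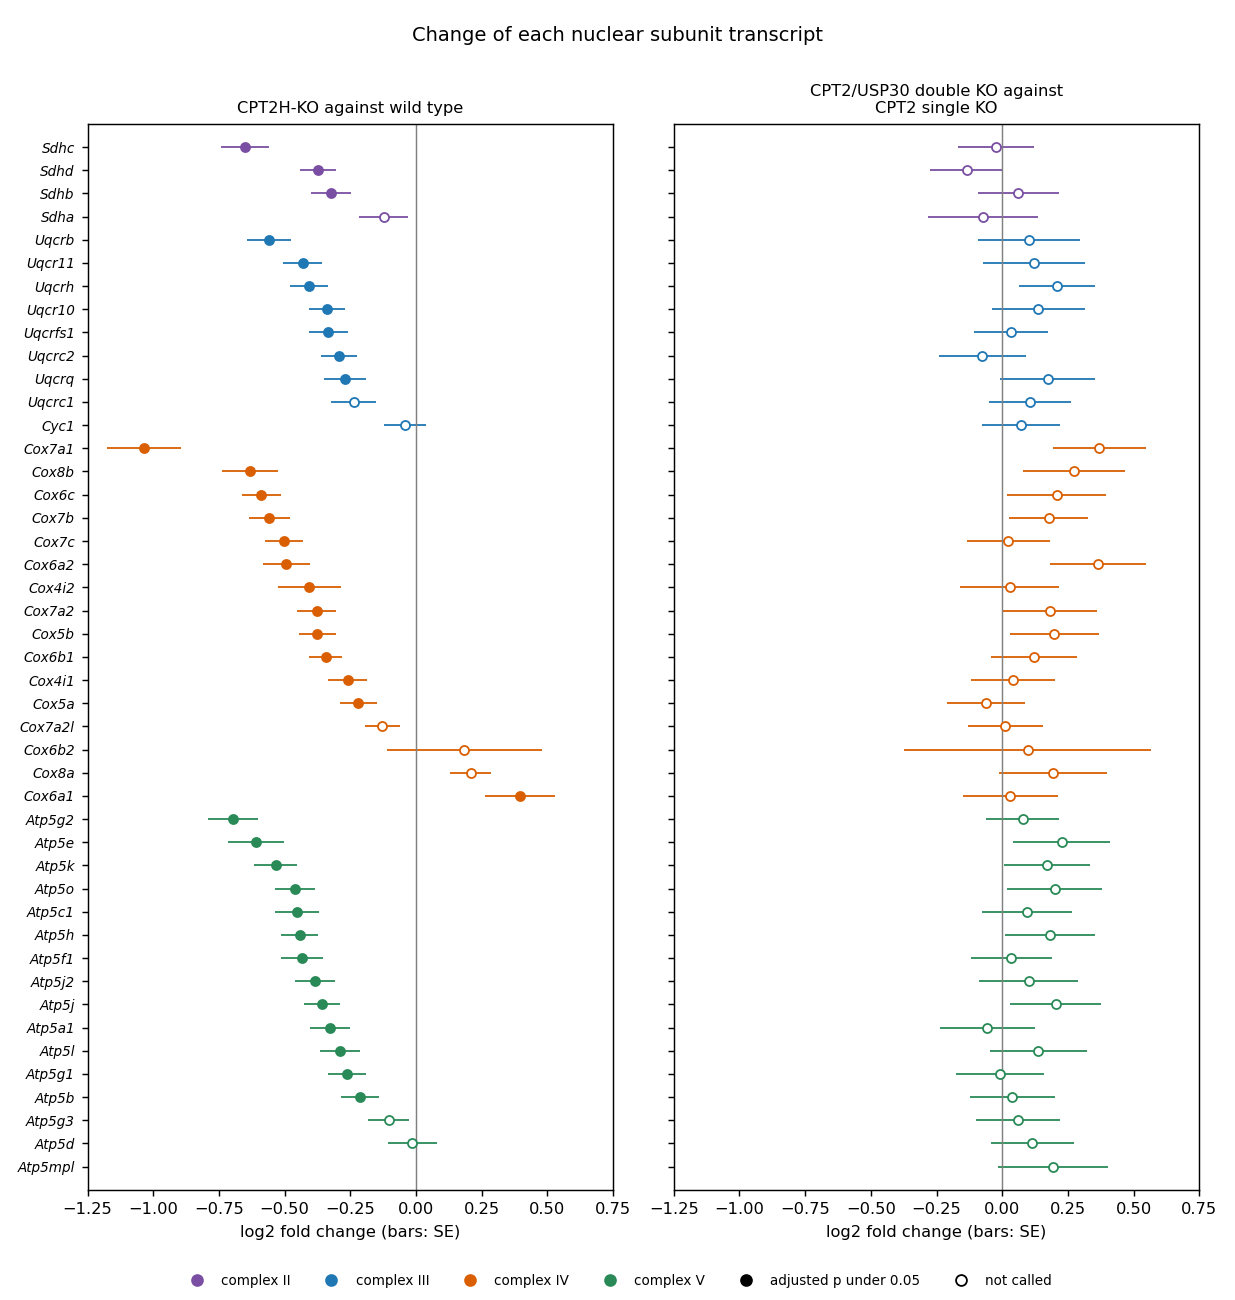
Log2 fold change (x axis) of each tested subunit (y axis), with SE bars, in CPT2H-KO against wild type hearts (left) and CPT2/USP30 double KO against CPT2 single KO hearts (right); colours mark the complex and filled points an edgeR adjusted p under 0.05. On the left 35 filled points lie below 0 and 1, Cox6a1, above it; on the right no point is filled and 38 of 45 lie above 0.

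Markers of cell types differed between the same libraries, and their part in the subunit values was not tested. The 7 cardiomyocyte markers summed to 17079.6 to 21378 CPM in CPT2H-KO hearts and to 21530.2 to 23444 CPM in wild type hearts, without overlap, and 5 of the 7 were called lower. Divided by that marker sum, the summed subunits were at 0.494 to 0.625 in CPT2H-KO libraries and at 0.544 to 0.590 in wild type libraries, and these ranges overlap. Myh6, the most abundant of these markers, was not called, at a mean of 10467 CPM in CPT2H-KO and 9259 CPM in wild type hearts (log2 fold change 0.18). The 6 fibroblast markers summed to 881 to 1652 CPM in CPT2H-KO and 612 to 944 CPM in wild type hearts, with 3 called higher. Those 3 are Col1a1, Col3a1 and Postn, while Dcn (0.02), Pdgfra (0.23) and Tcf21 (-0.05) were not called. With the atrial genes as a covariate, calls over all genes in either direction went from 4758 to 2856. In that fit 22 of the 35 lower calls of subunits were kept and all 35 kept a negative sign. The 13 whose call was lost are Sdhb in complex II, Uqcr10, Uqcrc2, Uqcrfs1 and Uqcrq in complex III, Cox4i1, Cox4i2, Cox5a and Cox7a2 in complex IV, and Atp5a1, Atp5b, Atp5g1 and Atp5l in complex V. Mitochondrially encoded genes took 67.1 ± 2.96% of counts in CPT2H-KO libraries (61.9 to 68.8%) and 60.6 ± 1.84% in wild type libraries (57.9 to 63.0%; SD, n = 5 each). When these genes were removed before scaling by library totals, all 35 lower calls were kept.

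In complex II the membrane anchors were lower and the flavoprotein was not called. Sdhc, which encodes a membrane subunit that helps bind ubiquinone and haem, stood at 84.0, 92.4, 102, 99.2 and 107 CPM in CPT2H-KO hearts and at 163, 148, 169, 154 and 129 CPM in wild type hearts. Its groups lay well apart, and its change of -0.65 on the log2 scale (SE 0.090, adjusted p = 4.44e-04) was the largest of the 4. Sdhd, the other membrane anchor, fell by 0.37 on the log2 scale (SE 0.070, adjusted p = 0.00245), with 141 to 171 CPM in CPT2H-KO and 181 to 213 CPM in wild type hearts. Sdhb, the iron-sulphur subunit, fell by 0.32 (SE 0.075, adjusted p = 0.00767), a call lost with the atrial covariate. Sdha, which carries FAD and oxidises succinate, was at 409, 362, 511, 487 and 421 CPM in CPT2H-KO hearts and 499, 485, 493, 459 and 448 CPM in wild type hearts. The CPT2H-KO libraries of Sdha spread on both sides of the wild type ones (log2 fold change -0.12, SE 0.093, adjusted p = 0.337). The median of complex II was -0.35.

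In complex III 7 of 9 subunits were lower and the median log2 fold change was -0.33. The leading falls were in small subunits that surround the catalytic core. Uqcrb, which lies near the ubiquinone-binding site, was at 111, 124, 121, 126 and 150.4 CPM in CPT2H-KO hearts and at 189, 199.9, 195, 176 and 172 CPM in wild type hearts. All CPT2H-KO values lay under the lowest wild type value (log2 fold change -0.56, SE 0.084, adjusted p = 7.49e-04). Uqcr11, one of the smallest subunits, fell by 0.43 (SE 0.075, adjusted p = 0.0016) and Uqcrh, the hinge protein that contacts cytochrome c1, by 0.41 (SE 0.072, adjusted p = 0.00188). The Rieske iron-sulphur protein gene Uqcrfs1, the core protein gene Uqcrc2 and the small subunit genes Uqcr10 and Uqcrq had values from -0.34 to -0.27, all called. All 4 lost their call with the atrial covariate. The groups of Uqcrq overlapped, and its call was lost in 6 of 20 alternatives. Cyc1, which encodes the haem-bearing cytochrome c1, was at 216, 211, 258, 239 and 210.1 CPM in CPT2H-KO hearts and 256, 219, 240.0, 242 and 212 CPM in wild type hearts. These groups overlapped through most of their range (log2 fold change -0.04, SE 0.080, adjusted p = 0.707). Uqcrc1, the other core protein gene, had -0.24 (SE 0.085, adjusted p = 0.0516) and was called in 6 of 20 alternative analyses.

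In complex IV 12 of 16 subunits were lower, 1 was higher and 3 were not called, with a median of -0.38. Cox6c had the smallest p of all 44. It was at 161, 165, 184, 179 and 199 CPM in CPT2H-KO hearts and at 267, 275, 289.9, 248 and 254 CPM in wild type hearts, with a wide gap between the groups (log2 fold change -0.59, SE 0.075, adjusted p = 2.76e-04). Cox7b, an X-linked structural subunit gene, fell by 0.56 (SE 0.079, adjusted p = 5.22e-04). Cox4i1, the form of its subunit found in most tissues, fell by 0.26 (SE 0.074, adjusted p = 0.0204), and its counterpart Cox4i2, a form known from lung and induced by low oxygen, fell by 0.41 at a far lower level (1.93 ± 0.202 CPM in CPT2H-KO and 2.56 ± 0.287 CPM in wild type hearts, n = 5 each, edgeR adjusted p = 0.023). Both calls were lost with the atrial covariate, with the replicate number as a block and without wild type replicate 3, that of Cox4i1 also without wild type replicate 1 and that of Cox4i2 without wild type replicate 4. Cox6b1 fell by 0.34, while Cox6b2, the testis form, was near the limit of detection at 0.416 ± 0.153 CPM in CPT2H-KO and 0.372 ± 0.0932 CPM in wild type hearts and was not called. Cox7a2l, whose protein helps join complexes III and IV into supercomplexes, was at -0.13 on the log2 scale (SE 0.066, adjusted p = 0.156) and was not called. The subunits outside the 3 isoform pairs had a median of -0.36, with 8 of 10 lower.

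The isoform pairs of complex IV did not move alike. All 3 muscle forms fell. Cox7a1 (chr7:30184144-30186078, plus strand, GRCm38) was at 83.3, 115, 137, 139 and 137 CPM in CPT2H-KO hearts and at 233, 263, 293, 247 and 218 CPM in wild type hearts. The groups were far apart, and its change of -1.04 on the log2 scale (SE 0.14, adjusted p = 4.06e-04) was the most negative of the 44. Cox6a2 (chr7:128205435-128206387, minus strand) was at 194, 195, 236, 238 and 232 CPM in CPT2H-KO hearts and at 329, 318, 318, 318 and 259 CPM in wild type hearts (log2 fold change -0.49, SE 0.090, adjusted p = 0.00215). Cox8b (chr7:140898945-140900446, minus strand) was at 63.1, 70.7, 88.5, 85.9 and 87.7 CPM in CPT2H-KO hearts and at 115, 123, 141, 121 and 112 CPM in wild type hearts (log2 fold change -0.63, SE 0.11, adjusted p = 0.00138). For each of these genes the highest CPT2H-KO library lay under the lowest wild type library.

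The general forms went different ways. Cox6a1 (chr5:115345642-115348981, minus strand) was at 54.1, 40.6, 31.5, 33.5 and 39.3 CPM in CPT2H-KO hearts and at 33.9, 28.6, 28.1, 31.3 and 29.2 CPM in wild type hearts. It was called higher (log2 fold change 0.40, SE 0.13, adjusted p = 0.0383), with overlapping groups, and lost its call in 8 of 20 alternative analyses, among them library totals as the only scaling (0.12) and the sex term. Cox8a (chr19:7215153-7217616, minus strand) was at 56.6, 56.6, 45.6, 47.8 and 54.6 CPM in CPT2H-KO hearts and at 49.6, 43.6, 44.4, 44.9 and 43.6 CPM in wild type hearts, which overlap. Its change of 0.21 on the log2 scale (SE 0.077, adjusted p = 0.0584) was not called, and was -0.05 with library totals as the only scaling. Cox7a2 (chr9:79755361-79759878, minus strand) fell like the muscle forms, with 105, 109.8, 112, 110.1 and 129 CPM in CPT2H-KO hearts and 162, 141, 154, 139 and 138 CPM in wild type hearts. Its change of -0.38 on the log2 scale (SE 0.075, adjusted p = 0.00325) lost its call with the atrial covariate (adjusted p = 0.0529).

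**Figure D2:**
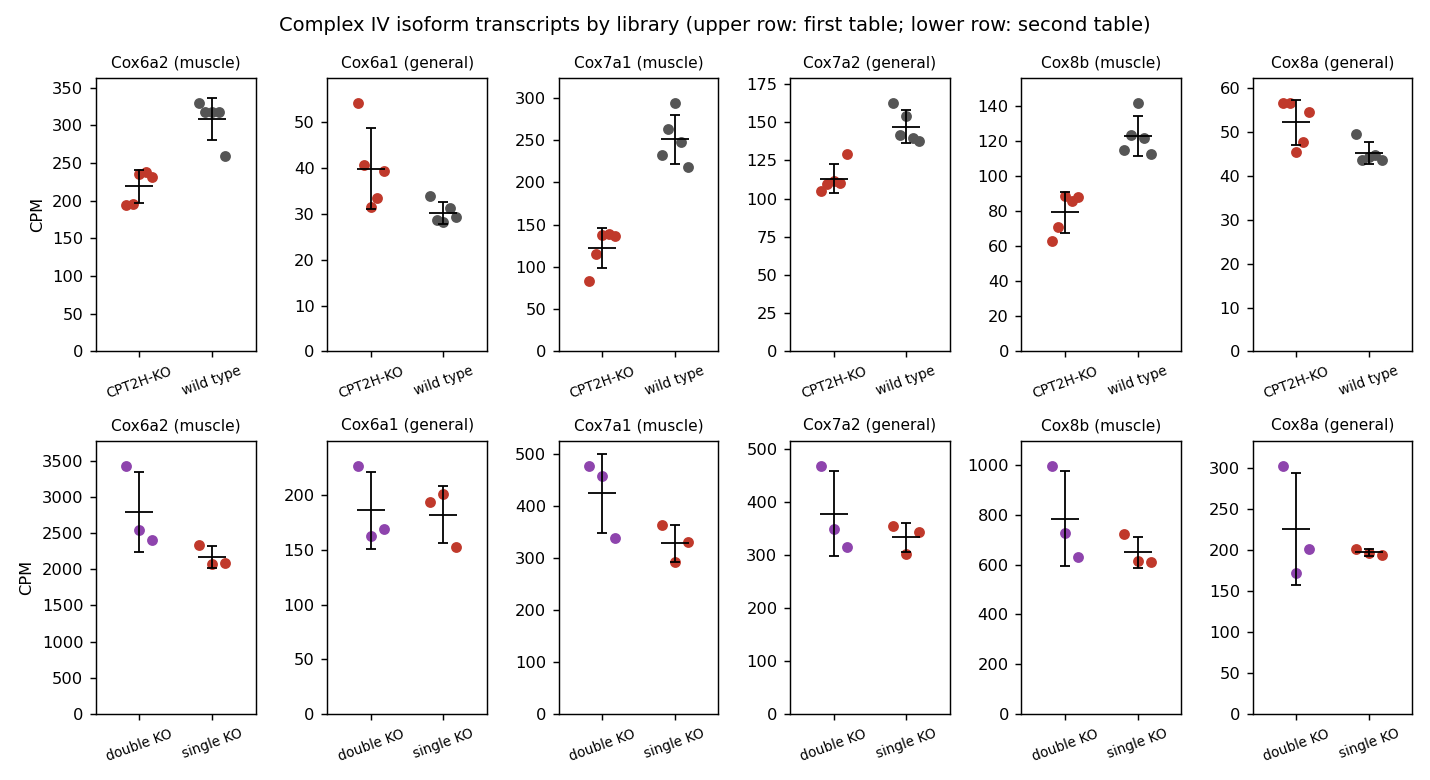
CPM (y axis, from 0) of the muscle and general forms in each library (points; bars are mean and SD), CPT2H-KO left of wild type in the upper row (n = 5 each) and CPT2/USP30 double KO left of CPT2 single KO in the lower row (n = 3 each). In the upper row all CPT2H-KO points of Cox6a2, Cox7a1, Cox8b and the general form Cox7a2 lie under the wild type points. Those of Cox6a1 and Cox8a overlap the wild type points. In the lower row the single gene without overlap is Cox6a2.

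A ratio of muscle over general form within a library does not depend on how libraries are scaled. It can still move with the mix of cell types, whose markers differed between these libraries, and that part was not tested. The count ratio of Cox6a2 over Cox6a1 was 3.59, 4.80, 7.48, 7.10 and 5.89 in CPT2H-KO hearts and 9.71, 11.1, 11.3, 10.1 and 8.84 in wild type hearts. That of Cox7a1 over Cox7a2 was 0.793, 1.05, 1.23, 1.26 and 1.06 in CPT2H-KO hearts and 1.43, 1.86, 1.90, 1.77 and 1.58 in wild type hearts. That of Cox8b over Cox8a was 1.12, 1.25, 1.94, 1.80 and 1.61 in CPT2H-KO hearts and 2.32, 2.83, 3.18, 2.71 and 2.58 in wild type hearts. Each ratio was lower in all 5 CPT2H-KO libraries than in any wild type library. On the log2 scale the differences were -0.87, -0.68 and -0.84, with a two-sided exact permutation p of 0.00794 each, the smallest that 5 against 5 allows, and 0.00794 adjusted over the 3 ratios. Per kb of exon the muscle form stood at 5.96 times the general form for COX6A in CPT2H-KO hearts and 10.5 times in wild type hearts, at 1.90 and 3.02 times for COX7A, and at 2.65 and 4.68 times for COX8. By group means per kb the muscle form stayed the more abundant transcript of each pair in both groups, a reading that depends on the exon lengths used. By counts alone, Cox7a1 was under Cox7a2 in CPT2H-KO replicate 1 (ratio 0.793). Within the CPT2H-KO group replicate 1 had the lowest value of all 3 ratios, and over every removal of a single library the differences stayed between -0.97 and -0.57. Among libraries with Y-linked transcripts alone, a subset chosen after the values were seen, the differences were -0.81, -0.66 and -0.88. Because the full groups do not overlap, no subset of them can, so a p for this subset would test nothing further.

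**Figure D3:**
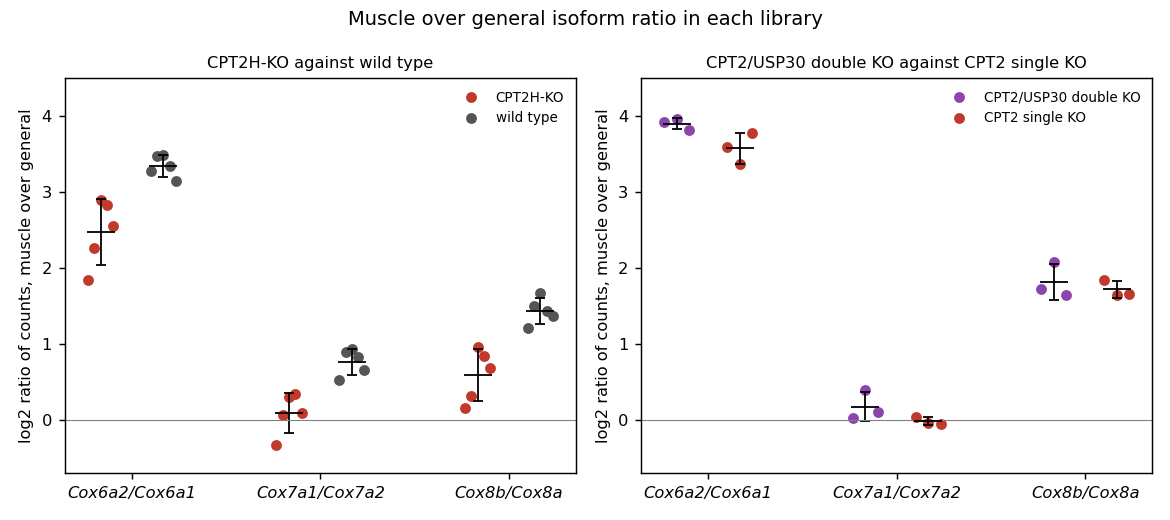
Log2 of the count ratio of muscle over general form (y axis) in each library, with mean and SD; CPT2H-KO left of wild type hearts in the left panel (n = 5 each) and CPT2/USP30 double KO left of CPT2 single KO hearts in the right panel (n = 3 each). In the left panel the groups are separate for all 3 ratios, with differences of -0.87, -0.68 and -0.84; in the right panel they are separate for Cox6a2/Cox6a1 alone, with a difference of 0.32.

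In complex V 13 of 15 subunits were lower, with a median of -0.38. Both catalytic head genes measured, Atp5a1 and Atp5b, whose proteins form the ATP-making hexamer, were lower (-0.33 and -0.21), although both calls were lost with the atrial covariate and that of Atp5b (adjusted p = 0.0395) in 11 of 20 alternatives. Of the central stalk, which turns inside the head, Atp5c1 and Atp5e were lower (-0.45 and -0.61) and Atp5d was not. Atp5d was at 166, 138, 167, 152 and 145 CPM in CPT2H-KO hearts and at 181, 148, 159, 157 and 129.7 CPM in wild type hearts, with groups that fully overlap (log2 fold change -0.01, SE 0.092, adjusted p = 0.924). All 4 peripheral stalk genes, Atp5f1, Atp5h, Atp5j and Atp5o, which hold the head still, were lower, with log2 fold changes of -0.46 to -0.36, with Atp5h at 214 ± 17.0 CPM in CPT2H-KO and 290.2 ± 15.2 CPM in wild type hearts (n = 5 each, edgeR adjusted p = 0.00103). Of the membrane accessory genes Atp5j2, Atp5k and Atp5l, all 3 were lower, with Atp5k at -0.53 (SE 0.083, adjusted p = 8.57e-04). The groups of Atp5l overlapped and its call was lost with the atrial covariate.

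The c ring, the rotor that protons turn, is encoded by 3 genes whose mature proteins are identical and whose import sequences differ. Of these, 2 were called lower and 1 was not. Atp5g2 was at 21.9, 27.7, 26.4, 27.2 and 31.4 CPM in CPT2H-KO hearts and at 46.7, 40.8, 47.0, 44.6 and 39.3 CPM in wild type hearts, with clear separation, a change of -0.70 on the log2 scale (SE 0.095, adjusted p = 4.20e-04) and the smallest p of the complex. Atp5g1 had -0.26 (SE 0.072, adjusted p = 0.0174), a call lost with the atrial covariate, and Atp5g3 -0.10 (SE 0.077, adjusted p = 0.327), which was not called. The differences among the 3 genes were not tested. Of the genes that share the symbol without being subunits, Atp5s was lower (-0.23, adjusted p = 0.0329) with a call lost in 10 of 20 alternatives, and Atp5sl was not called (-0.16, adjusted p = 0.302).

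Levels per kb of exon ranked the subunits from Atp5a1 (472 CPM per kb in CPT2H-KO and 592 in wild type hearts) and Atp5b (426 and 494) down to Cox4i2 (2.45 and 3.25) and Cox6b2 (0.376 and 0.336). In wild type hearts Cox7a1, at 469, and Cox6a2, at 453 CPM per kb, came next after these, both above the general forms Cox7a2 (156) and Cox6a1 (43.1). Level and change had a Spearman coefficient of 0.01 between CPM and log2 fold change over the 44 subunits. Exon length, which libraries and counting share, gave 0.26 over the subunits and 0.16 over all genes. Exon length here is the union over annotated transcripts, which understates the level per kb of genes with long minor transcripts.

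Of 6 mitochondrially encoded partners of the same complexes, 4 were higher in CPT2H-KO hearts and 0 lower, although 0 of the 6 were called when libraries were scaled by their totals alone. mt-Cytb, the catalytic cytochrome b of complex III, was at 8248, 6461, 8854, 8167 and 7641 CPM in CPT2H-KO hearts and at 5832, 6841, 6209, 5255 and 5521 CPM in wild type hearts (log2 fold change 0.41, SE 0.11, adjusted p = 0.0127). The library of CPT2H-KO replicate 2 lay within the wild type range. mt-Co1, the oxygen-reducing core of complex IV, had 0.31 (SE 0.10, adjusted p = 0.0414), and mt-Atp6 and mt-Atp8, membrane subunits of complex V, had 0.67 (adjusted p = 0.0395) and 0.51 (adjusted p = 0.0198). mt-Co2 (0.16, adjusted p = 0.385) and mt-Co3 (0.23, adjusted p = 0.407) were not called. Nuclear copies of part of the mouse mitochondrial genome can share reads with mt-Co1, mt-Co2, mt-Co3, mt-Atp6 and mt-Atp8, so their counts are uncertain. When libraries were scaled by their totals alone, the median of all genes was -0.27, all 4 calls were lost (values of 0.04 to 0.44) and mt-Co2 and mt-Co3 were at -0.10 and -0.03. With the atrial covariate the call of mt-Atp6 alone was kept. The higher share of mitochondrially encoded counts in CPT2H-KO libraries, given above, moves with these values, and its part in them was not tested. These genes were not analysed in the second table.

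**Figure D4:**
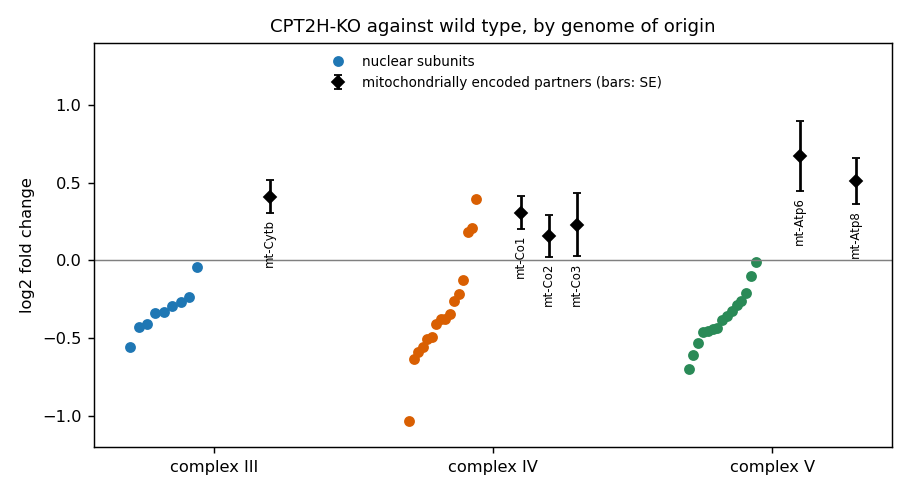
Log2 fold change (y axis) in CPT2H-KO against wild type hearts for the nuclear subunits (circles) of complexes III, IV and V and for their mitochondrially encoded partners (diamonds, with SE bars). The diamonds all lie above 0 with TMM scaling, from 0.16 for mt-Co2 to 0.67 for mt-Atp6 (mt-Co2 and mt-Co3 are below 0 with library totals), and all but 3 of the circles, which belong to complex IV, lie below it.

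Genes that build the complexes went both ways. Of 21 complex IV assembly genes tested, 5 were higher, 7 lower and 9 not called. Over all genes tested 16.7% were higher and 17% lower, and the assembly lists were not tested as sets. The 4 with the smallest p were Cox19 (0.68, adjusted p = 3.41e-04), a copper-handling protein of the intermembrane space, Coa5 (0.38, adjusted p = 0.00195), Cox10 (0.45, adjusted p = 0.00235), which makes haem O, and Cox17 (-0.59, adjusted p = 0.0029), which hands on copper. The values of Cox10 and Coa5 were 0.18 and 0.12, without a call, with library totals as the only scaling. Of 4 complex II assembly genes, Sdhaf1 (-0.31) and Sdhaf4 (-0.41) were lower, and of 6 complex III assembly genes Uqcc2 was lower (-0.49, adjusted p = 0.00325). Of 5 complex V genes, the assembly factors Fmc1 (-0.67, adjusted p = 0.00213) and Tmem70 (-0.46, adjusted p = 0.00208) were lower, and the inhibitor gene Atpif1 was not called (0.21, adjusted p = 0.0618). The electron carrier gene Cycs (-0.33, adjusted p = 0.00909) and Ndufa4 (-0.38, adjusted p = 0.00529), which encodes a loosely bound subunit of complex IV, were lower. The calls of Sdhaf1, Sdhaf4, Cycs and Ndufa4 were lost with the atrial covariate.

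The second comparison asks what additional loss of USP30 does in hearts that lack CPT2. No subunit was called, but the comparison recovers few changes of moderate size. In simulated data modelled on this table, 3.23% of genes changed by 0.5 on the log2 scale were called, and 50% of those changed by 1. The changed genes were drawn at random from expressed genes of any kind, so these shares need not hold for the subunits. Usp30 itself was not called (edgeR adjusted p = 0.147), so the lack of a call does not show a lack of change. Of 46 subunits listed, 45 were tested, since Cox7b2, a testis form, had 1 count in a single double KO library and was removed by the filter. edgeR called 0 of the 45 at an adjusted p under 0.05 (0% of 12997 genes), and 0 of the 45 had an unadjusted p under 0.05, against 7.25% of all genes (4.55% higher and 2.69% lower). DESeq2 called 113 genes and 0 of the subunits. The fold changes leaned upward, with 38 above 0 and 7 below and a median of 0.10, against 0.0027 for all genes.

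The 3 with the smallest p among those above 0 were Cox7a1, Cox6a2 and Uqcrh. Cox7a1 was at 478, 458 and 338 CPM in double KO hearts and at 364, 292 and 330.2 CPM in single KO hearts (log2 fold change 0.37, SE 0.18, unadjusted 0.0631 and edgeR adjusted p = 0.708). Cox6a2 was at 3433, 2544 and 2402 CPM in double KO hearts and at 2343, 2077 and 2085 CPM in single KO hearts (0.37, SE 0.18, unadjusted 0.0757 and edgeR adjusted p = 0.736). Cox6a2 was the single subunit whose groups did not overlap; 11.8% of all genes did not overlap, 6.69% higher and 5.07% lower. Uqcrh was at 433, 389 and 349 CPM in double KO hearts and 351, 328 and 336 CPM in single KO hearts (0.21, SE 0.14, adjusted p = 0.838). Among those below 0 the smallest p were those of Sdhd (-0.14, SE 0.14, adjusted p = 0.896), Uqcrc2 (-0.08, SE 0.16, adjusted p = 0.962) and Cox5a (-0.06, SE 0.15, adjusted p = 0.968). Sdhd was at 347, 373 and 382 CPM in double KO hearts, against 380.4, 391 and 439.5 CPM in single KO hearts, which overlap by a narrow margin.

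The other isoforms of complex IV had overlapping groups. Cox8b was at 998, 728.7 and 630.3 CPM in double KO hearts and 723, 615 and 612 CPM in single KO hearts (0.27, SE 0.19, adjusted p = 0.842). Cox8a was at 303, 172 and 201 CPM in double KO hearts and 201, 197 and 193 CPM in single KO hearts (0.19, SE 0.21, adjusted p = 0.901). For both genes double KO replicate 1 was the highest library. Cox6a1 was at 227, 162 and 169 CPM in double KO hearts and 194, 201 and 152 CPM in single KO hearts (0.03, SE 0.18), and Cox7a2 at 468, 349 and 316 CPM in double KO hearts and 354, 301 and 344 CPM in single KO hearts (0.18, SE 0.18). The count ratio of Cox6a2 over Cox6a1 was 15.1, 15.7 and 14.2 in double KO hearts and 12.1, 10.3 and 13.7 in single KO hearts, without overlap. Its log2 difference was 0.32 with an exact permutation p of 0.1, the smallest that 3 against 3 allow, and 0.3 adjusted over the 3 ratios. The differences of Cox7a1 over Cox7a2 (0.20, exact permutation p = 0.2) and of Cox8b over Cox8a (0.10, exact permutation p = 0.6) had overlapping groups.

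By complex the medians in double against single KO hearts were -0.05 for complex II, 0.11 for complex III, 0.15 for complex IV and 0.11 for complex V. They rest largely on double KO replicate 1, whose median deviations from the single KO mean were -0.19, 0.35, 0.33 and 0.29 for complexes II to V. Those of replicate 2 were 0.13, 0.11, 0.13 and 0.16, and those of replicate 3 -0.04, -0.07, -0.07 and -0.07. In replicate 1 complex II thus lay on the other side of 0 from the rest, and Sdha was at 900.2 CPM there, against 1547 and 1362 CPM in the other double KO libraries and 1280.2, 1255 and 1474 CPM in single KO libraries. Replicate 1 is also the double KO library with the lowest sum of Myl7, Myl4 and Sln (9.05 CPM), and that with the highest sum once Nppa is added (7459 CPM). With the covariate made from Myl7, Myl4 and Sln the medians of complexes II to V were -0.21, 0.41, 0.38 and 0.35. The Spearman coefficient of fold change with exon length was -0.37 over the subunits and -0.21 over all genes, and that of single libraries over the subunits was -0.35, 0.27 and 0.24 in double KO and -0.46, -0.18 and 0.40 in single KO libraries. The part of exon length in these medians was not tested. Marker sums of other cell types differed between the groups without overlap, at 808 to 965 CPM in double KO and 1092 to 1217 CPM in single KO hearts for 5 endothelial genes. For 5 red blood cell genes they were 4516 to 7693 CPM in double KO and 8060.4 to 9942 CPM in single KO hearts, and for 4 smooth muscle genes 231 to 319.5 CPM in double KO and 170.2 to 188 CPM in single KO hearts. Sums of 5 white fat genes, none of which passed the filter on low counts, did not overlap either. They were 0.332, 2.90 and 45.1 CPM in double KO and 0 to 0.0813 CPM in single KO hearts. The 7 cardiomyocyte markers overlapped, at 68162 to 98144 CPM in double KO and 70298 to 75974 CPM in single KO hearts.

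**Figure D5:**
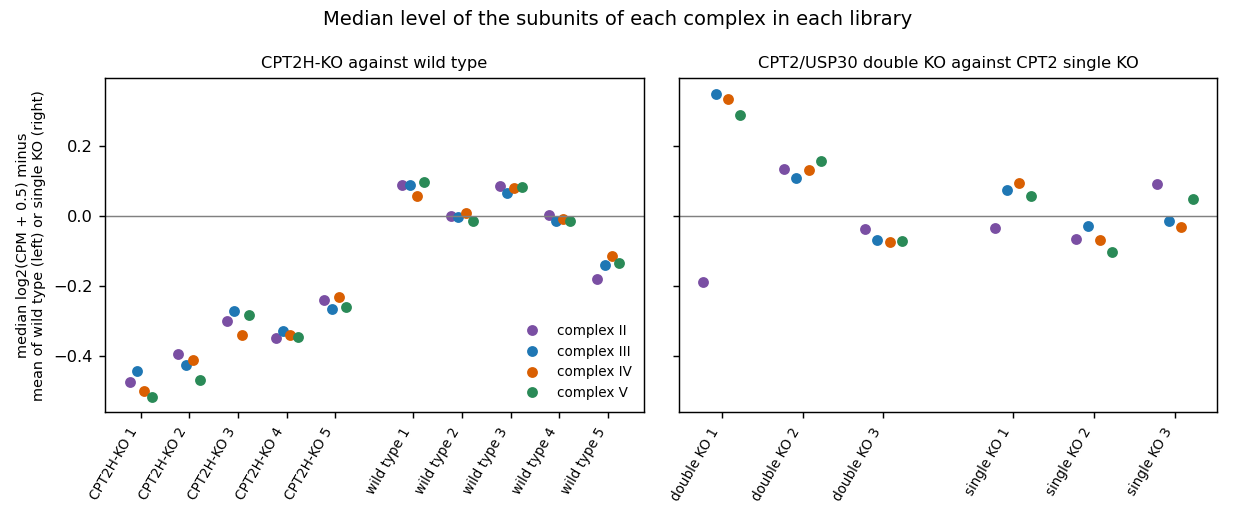
Median over the subunits of each complex (colours) of log2(CPM + 0.5) minus the mean of wild type (left panel) or CPT2 single KO libraries (right panel), for each library (x axis). All CPT2H-KO libraries lie at -0.23 or lower for every complex, under all wild type libraries; in the right panel double KO replicate 1 is highest for complexes III to V and lowest for complex II.

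The tables share no library, so their values for the same genes can be set side by side. Of the 35 subunits lower in CPT2H-KO than in wild type hearts, 29 (82.9%) had a fold change above 0 in double against single KO hearts, beside 84.1% of all 44 subunits tested in both tables. Of 2077 genes of any kind called lower in CPT2H-KO hearts and tested in both, 59.1% were above 0, and of all 12034 genes tested in both 49.7%. None of these second values was called for a subunit. For the muscle forms the values in CPT2H-KO against wild type and in double against single KO hearts were -1.04 and 0.37 for Cox7a1, -0.49 and 0.37 for Cox6a2, and -0.63 and 0.27 for Cox8b. For Sdhc they were -0.65 and -0.02, for Atp5g2 -0.70 and 0.08, and for Cox6c -0.59 and 0.21.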

How the data were processed

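Total RNA was read from 16 mouse hearts. Per the labels' protocols, RNA was column-purified and DNase-treated, and stranded libraries were made after ribosomal RNA removal. Per the submitters' processing notes, HISAT2 and the mm10 build were used, with bcl2fastq and DESeq2 1.42.0. No source used here names the counting program or how it treated strand. Exons of 13 subunits overlap another annotated gene (11 of them on the opposite strand alone), among them Cox6a2, Cox6c, Uqcrb and Atp5o, so reads there may be shared. Raw counts per gene came as 2 tables deposited by the authors, which list different genes, so groups were compared within each table only. A single row that names no gene was dropped from the second.

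Genes were filtered with filterByExpr, scaled by TMM and tested with edgeR 4.0.16 (R 4.3.3) by its quasi-likelihood test over all genes, with Benjamini-Hochberg adjustment and a threshold of 0.05. SE was taken as the absolute log2 change over the root of the F statistic. CPM use TMM-scaled totals. Isoform ratios used counts plus 0.5 and a two-sided exact permutation test. The scripts were tested on simulated data. Alternatives covered scaling, filter, DESeq2 1.42.0, limma-voom (limma 3.58.1), a replicate block, atrial and sex covariates and removal of single libraries. Gene positions and exon lengths are from GENCODE on GRCm38, which is mm10; promoters are from RefSeq (GRCm38.p6).

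Members and lists were chosen with earlier results of these data known. Named genes are Cpt2, Usp30, the isoform families, Sdh genes, the 3 smallest p of complexes III to V, all uncalled or higher members, the 3 smallest p each way in double against single KO hearts, mitochondrially encoded partners, and up to 4 assembly genes per list by p; further subunits were named, after their values were seen, to complete small groups.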

Additional observations from a re-analysis of the deposited data

Results flagged for a closer look

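In 94 groups of 5 libraries, 1 for each subunit or isoform ratio in each genotype of the first table, the library farthest from the rest was compared with the spread of its group, and 6 stood out by Dixon's criterion for 5 values (0.71); chance gives about 1 in 20 groups. Among CPT2H-KO libraries, replicate 5 was high for Atp5c1 (394 CPM, against 308 to 322 in the others) and for Cox7a2 (129 CPM, against 105 to 112), and replicate 1 was low for Cox4i2 (1.58 CPM, against 1.95 to 2.10). Among wild type libraries, replicate 5 was low for Cox6a2 (259 CPM, against 318 to 329) and for Cox5b (209.9 CPM, against 235 to 244), and replicate 1 was high for Cox8a (49.6 CPM, against 43.6 to 44.9). Replicate 5 of each genotype thus supplied 4 of the 6. Atp5c1, Cox6a2, Cox5b and Cox4i2 stayed lower in CPT2H-KO hearts without the library named, and Cox7a2 likewise. Of general forms, Cox8a was called higher without wild type replicate 1.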

How the results depend on the processing

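All 35 subunits called lower in CPT2H-KO hearts stayed below 0 in each of 20 alternatives, and 22 were called in each of them, 30 in each but the atrial covariate. The number called lower was 22 with the atrial covariate, and 30 to 36 when single libraries were removed; without wild type replicate 3 it was 30. Calls over all genes, in either direction, were 2856 with the atrial covariate and 4758 without it. The number called higher, 1 in the report, was 0 with library totals and with the sex term, 2 with a filter of CPM at least 1, with DESeq2 and with the atrial covariate, and 0 to 2 when single libraries were removed (0 without CPT2H-KO replicate 2 or 5 or wild type replicate 2, 3, 4 or 5, and 2 without CPT2H-KO replicate 3 or wild type replicate 1). With library totals, where the median of all genes was -0.27, the medians of complexes II to V were -0.61, -0.60, -0.64 and -0.64, and 41 subunits were lower. In double against single KO hearts 0 subunits were called in each of 17 alternatives, and 28 changed sign in at least 1 of them. The medians of complexes II to V there were -0.21, 0.41, 0.38 and 0.35 with the atrial covariate, and -0.20, 0.33, 0.32 and 0.28 without double KO replicates 2 and 3, which carry atrial transcripts, a removal that leaves 1 double KO library whose spread is assumed to be that of the others. The cause of these shifts was not tested. Removing single libraries gave medians of -0.11 to 0.03 for complex II and -0.0035 to 0.21 for complex III. For complex IV they were -0.0036 to 0.22 and for complex V 0.04 to 0.21.

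Nothing in the labels links libraries of the same replicate number. Deviations of same-numbered libraries correlated at -0.05 to 0.26 in the first table and -0.20 to 0.18 in the second. Differently numbered libraries were not compared, so these values cannot decide whether the numbers pair libraries. With the replicate number as a block 30 subunits were lower and 1 higher in CPT2H-KO hearts, and 0 were called in double KO hearts. The isoform ratios kept differences of -0.87, -0.68 and -0.84 under the replicate block, with an exact permutation p of 0.0625 each, the smallest that 5 pairs allow. Removing single libraries gave differences of -0.97 to -0.71, -0.74 to -0.57 and -0.94 to -0.74 in the first table. In the second it gave 0.22 to 0.42 for Cox6a2/Cox6a1, 0.08 to 0.27 for Cox7a1/Cox7a2 and -0.034 to 0.18 for Cox8b/Cox8a, the lowest without double KO replicate 2. Removal of mitochondrially encoded genes gave no value in the second table. Depth limits Cox6b2, Cox4i2 and Cox7b2 most, whose counts were low in both tables or absent from most libraries.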
